A study of Mus musculus with 21 samples.

Results

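Transcript levels of 10 transcription factors of the primitive streak and nascent mesoderm (T, Eomes, Mixl1, Evx1, Gsc, Lhx1, Mesp1, Tbx6, Msgn1 and Mesp2) were followed across 7 groups of sorted embryoid body cells. The factors were taken by gene symbol, 1 Ensembl gene each, from the 55487 gene IDs counted, and all 10 passed the filter on low counts in both sets of libraries. RNA came from mouse embryonic stem cells differentiated in serum as embryoid bodies, spheres of cells that form mesoderm in culture, harvested on day 4 and sorted for FLK1 (gene Kdr) and PDGFRalpha (gene Pdgfra), both receptors. Cells with FLK1 and without PDGFRalpha are called SP, and cells with both receptors are called DP. The first set came from TGET cells, a line with T-GFP and Etv2-tdTomato reporters, as SP Etv2-positive, SP Etv2-negative, DP Etv2-positive and DP Etv2-negative cells by tdTomato. Cells described as having the reporter are those positive for tdTomato. The second set held SP cells from the iEtv2 line, in which doxycycline at 2 µg/ml from day 2.5 switches on Etv2 and, from the wildtype (WT) line A2lox.Cre, both SP and DP cells. Each group had 3 libraries, 21 in all, and each genotype is a single cell line. How the T-GFP reporter is built, and whether GFP entered the sort, is not given in the sources used here. Doxycycline is given in the labels for the iEtv2 cells, and the labels do not say whether WT cells received it. Line and any difference in drug cannot be told apart in that comparison. The labels do not say that replicates were separate cultures, so p-values measure the spread between these libraries.

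Mesoderm forms when cells of the epiblast pass through the primitive streak. Nodal and Wnt signals switch on the T-box factors T (Brachyury) and Eomes and the homeodomain factor Mixl1 there, and Evx1 marks the posterior and Gsc and Lhx1 the anterior streak and the endoderm and midline mesoderm that leave it. Cells leaving the streak pass through a short Mesp1 phase, which precedes heart, blood vessel and head mesoderm, while Msgn1 and Tbx6 drive presomitic mesoderm, the source of somites, and Mesp2 sets somite boundaries. Etv2 is an ETS factor required for endothelium and blood, and by its title the study concerns what Etv2+ and Flk1+ progenitors give rise to among vessel, blood and heart cells. PDGFRalpha loss and Etv2 onset are both usual steps from FLK1-positive mesoderm toward endothelium and blood.

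Gene counts came to between 25045553 and 32777143 per library in the TGET set and between 22406153 and 28184904 in the iEtv2 and WT set, so 3 counts correspond to 0.0915 to 0.134 CPM, the count scaled to library size. Pseudogenes took 12.22 to 14.42% of counts in the TGET set and 0.549 to 0.636% in the other set, and no level is compared between the sets. SP Etv2-positive replicate 3 held 1.28% and SP Etv2-negative replicate 2 held 1.40% ribosomal RNA, against at most 0.432% in the other TGET libraries. Etv2 averaged 89 ± 17 CPM in SP Etv2-positive and 26.6 ± 1.04 in SP Etv2-negative cells, 58.4 ± 10.3 in DP Etv2-positive and 20.2 ± 2.61 in DP Etv2-negative ones, and 239 ± 10.2 in iEtv2 SP, 93.6 ± 22.4 in WT SP and 53.6 ± 4.38 in WT DP cells (SD, n = 3 each). Pdgfra, whose product defines the gates, had a lower mean in SP cells of both sets, at 37.5 ± 11 in SP and 150 ± 22.6 CPM in DP Etv2-positive cells, at 51.7 ± 9.22 in SP and 253 ± 34.9 in DP Etv2-negative cells, and at 40 ± 7.75 in WT SP and 318 ± 67.4 in WT DP cells. In sorted bulk RNA, fewer cells that express a gene and less RNA per cell cannot be told apart.

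The 10 genes lie on 7 chromosomes of mm10 and are all annotated as protein-coding. T lies at chr17:8434423-8442496 on the plus strand, Eomes at chr9:118478212-118486132 on the plus strand and Mixl1 at chr1:180693043-180697034 on the minus strand. Evx1 lies at chr6:52313498-52318378 on the plus strand, Lhx1 at chr11:84518284-84525535 on the minus strand and Gsc at chr12:104471209-104473330 on the minus strand. Mesp1 (chr7:79792241-79793788, minus strand) and Mesp2 (chr7:79810727-79813439, plus strand) are neighbours transcribed away from each other with 16938 bases between them, Tbx6 is at chr7:126781483-126785560 on the plus strand, and Msgn1 is at chr12:11208360-11208972 on the minus strand. Promoter sequence, 250 bases before to 50 after the RefSeq start of the gene, was found for 9 of the 10 in RefSeq (GRCm38.p6). The 4 shown belong to Mesp1, Msgn1 and Mesp2, which had the largest differences between iEtv2 and WT SP cells, and to T, which did not pass there. Capitals mark matches on either strand to a T-box core (TCACACC), a TCF/LEF core (CTTTGA, read as TCAAAG on the other strand), a FOXH1 motif (TGTGNATT) or a homeodomain core (TAATTA). Each runs 5′ to 3′ along the gene's own strand. RefSeq's start of Mesp1 and of Msgn1 lies inside the gene bounds given above, and most of the Mesp1 window falls within the annotated gene.
T, chr17:8434173-8434472, plus strand: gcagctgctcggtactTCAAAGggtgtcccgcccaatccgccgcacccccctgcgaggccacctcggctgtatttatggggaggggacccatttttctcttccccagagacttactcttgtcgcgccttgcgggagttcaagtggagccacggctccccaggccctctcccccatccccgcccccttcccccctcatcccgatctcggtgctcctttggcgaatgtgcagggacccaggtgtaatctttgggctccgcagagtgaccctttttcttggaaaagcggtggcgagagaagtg
Mesp1, chr7:79793541-79793840, minus strand: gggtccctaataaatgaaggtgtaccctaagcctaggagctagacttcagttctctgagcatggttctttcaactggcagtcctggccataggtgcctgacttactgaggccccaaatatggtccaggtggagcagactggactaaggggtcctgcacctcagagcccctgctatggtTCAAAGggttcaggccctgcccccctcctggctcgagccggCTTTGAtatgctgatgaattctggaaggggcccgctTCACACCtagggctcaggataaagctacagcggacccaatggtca
Mesp2, chr7:79810477-79810776, plus strand: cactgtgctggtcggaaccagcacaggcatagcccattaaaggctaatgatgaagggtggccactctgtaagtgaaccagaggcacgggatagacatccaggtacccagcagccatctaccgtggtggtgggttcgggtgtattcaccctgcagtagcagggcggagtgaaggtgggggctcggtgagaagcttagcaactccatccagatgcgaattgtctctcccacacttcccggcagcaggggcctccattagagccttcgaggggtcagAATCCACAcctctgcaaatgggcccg
Msgn1, chr12:11208899-11209198, minus strand: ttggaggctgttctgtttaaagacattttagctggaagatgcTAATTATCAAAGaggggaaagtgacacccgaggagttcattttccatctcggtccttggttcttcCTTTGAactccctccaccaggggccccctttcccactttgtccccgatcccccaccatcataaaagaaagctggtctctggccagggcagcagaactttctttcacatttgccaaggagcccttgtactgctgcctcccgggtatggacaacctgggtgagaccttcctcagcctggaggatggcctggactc

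The T promoter held 1 TCF/LEF core, and those of Mesp1 and Msgn1 held 2 each, on opposite strands. Matches to this core occurred in 3 of the 9 promoters and in 16.0% of 32851 RefSeq promoters of the same length. The T-box core occurred at Mesp1 alone among the 9 (3.98% of all promoters), the FOXH1 motif at Mesp2 alone (3.6%), and the homeodomain core at Msgn1, where it ends directly before a TCF/LEF core, and at Tbx6 (5.29%). The ETS motif CCGGAA, the kind that Etv2 and its relatives bind, was in none of the 9 windows and in 14.9% of all promoters. These matches describe letters in a short window and are not evidence of binding.

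Per kilobase of exon, the order of the factors differed between groups. In SP Etv2-positive cells Eomes stood first at 47.7 ± 16.7 CPM per kb, followed by Mixl1 at 29.0 ± 10.3 and T at 23.0 ± 5.19. In DP Etv2-negative cells Mesp1 stood first at 159 ± 26.0 CPM per kb and Eomes second at 135 ± 34.2. In iEtv2 SP cells T stood first at 115 ± 51.3 CPM per kb, with Mixl1 next at 26.2 ± 21.1, while WT SP cells had T at 87.3 ± 16.2, Mixl1 at 84.0 ± 22.0 and Eomes at 83.1 ± 20.4. Mesp2 was the lowest of the 10 in each of the 7 groups. The ratio of Mesp1 to T, both per kilobase, was 0.404 ± 0.0129 in SP Etv2-positive and 2.28 ± 0.683 in SP Etv2-negative cells (SD, n = 3 each). Among DP cells it was 1.64 ± 0.233 in Etv2-positive and 3.69 ± 0.722 in Etv2-negative ones. In the other set it was 0.0174 ± 0.0158 in iEtv2 SP, 0.527 ± 0.115 in WT SP and 2.18 ± 0.762 in WT DP cells.

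**Figure D1:**
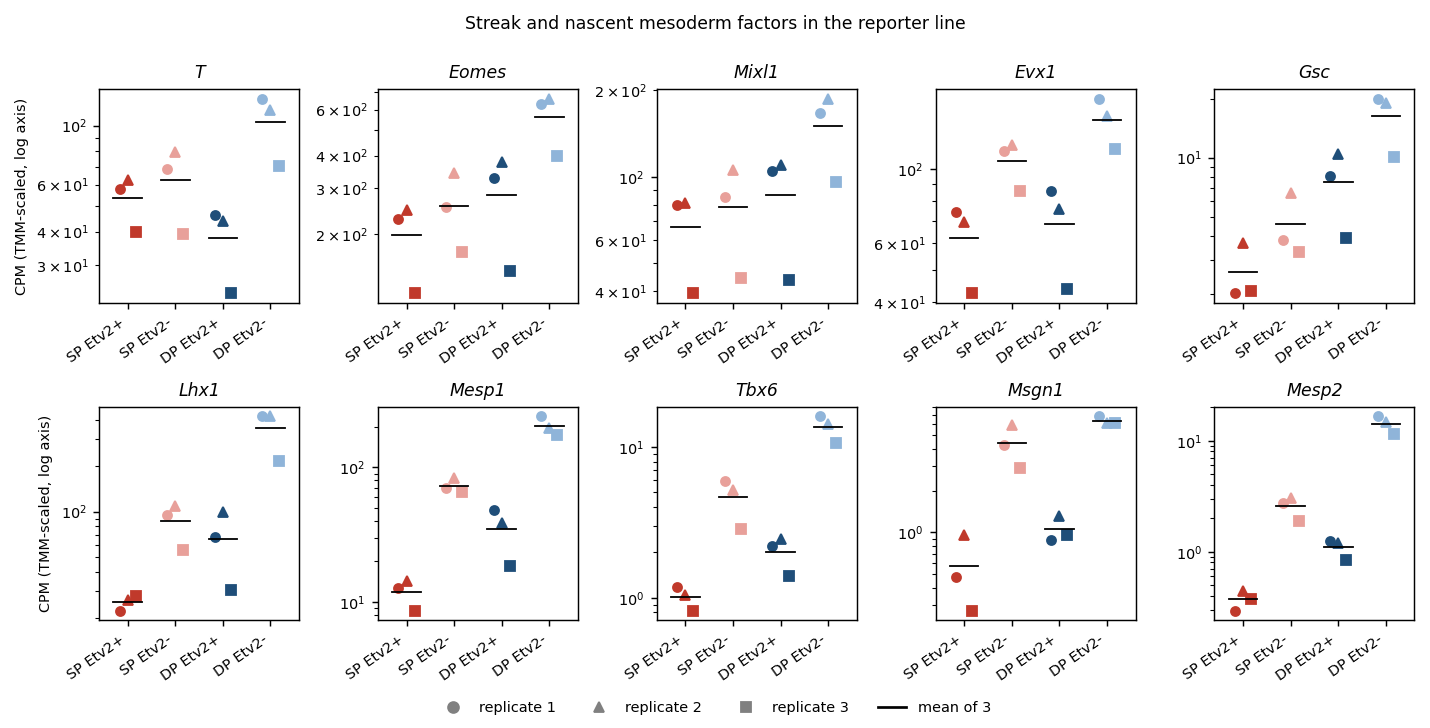
CPM of each factor on a log axis in the 4 TGET groups (circle, triangle and square for replicates 1, 2 and 3, line for the mean of 3). Mesp1, Mesp2 and Tbx6 increase in the order SP Etv2-positive, DP Etv2-positive, SP Etv2-negative, DP Etv2-negative with no overlap of neighbouring groups, while T overlaps between every pair of neighbours in its order.

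The first question was how Etv2-positive and Etv2-negative cells of the same gate differ. In DP cells 8 of the 10 factors were lower with the reporter and none was higher, at a Benjamini-Hochberg adjusted p below 0.05 over 17690 genes in edgeR's quasi-likelihood test. Of all genes tested 30.7% were called, and 14.7% were called lower. The nascent mesoderm factors had the largest differences, 13.1-fold for Mesp2, 6.81-fold for Tbx6, 6.04-fold for Msgn1 and 5.81-fold for Mesp1, all lower in Etv2-positive cells. The median log2 difference was -1.95 over the 10 factors and 0.00 over all genes.

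Among the streak factors, T had 46.1, 43.9 and 23.5 CPM in DP Etv2-positive cells, against 126, 114 and 70.5 CPM in DP Etv2-negative cells. The groups did not overlap, and edgeR gave a log2 fold change of -1.46 ± 0.30 (SE, adjusted p = 0.00279). Evx1, a homeodomain factor of the posterior streak, had 85.7, 75.9 and 43.6 CPM in DP Etv2-positive cells, against 162, 144 and 115 in DP Etv2-negative cells, again with no overlap (-1.04 ± 0.24, edgeR adjusted p = 0.00561). Eomes, which is needed for cells to leave the streak and for Mesp1 expression, had 327, 378 and 145 CPM in Etv2-positive and 628, 660 and 399 in Etv2-negative cells. These did not overlap either, but the log2 fold change of -0.99 ± 0.36 missed the threshold (edgeR adjusted p = 0.0507). It passed without DP Etv2-negative replicate 3 (0.0318) or DP Etv2-positive replicate 2 (0.0337). These were 2 of 6 fits that left out 1 library, and in the others the edgeR adjusted p went up to 0.146. Mixl1 had 105, 110 and 43.8 CPM in Etv2-positive and 167, 187 and 95.8 in Etv2-negative cells, which overlapped (-0.80 ± 0.39, edgeR adjusted p = 0.14). With the replicate number as a block, since same-numbered libraries deviated together in this comparison, the log2 fold changes were -1.06 for Eomes and -0.85 for Mixl1, and all 10 factors passed (edgeR adjusted p = 8.82e-06 and 6.04e-06 for these genes).

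Lhx1 and Gsc, which mark the anterior streak, were lower too. Lhx1, a LIM homeodomain factor of anterior streak and node, had 67.6, 98.7 and 30.5 CPM in DP Etv2-positive cells, against 424, 424 and 215 CPM in DP Etv2-negative cells (-2.44 ± 0.37, edgeR adjusted p = 0.000358). The lowest Etv2-negative library stood above every Etv2-positive one. Gsc, the homeodomain factor of the organizer region, had 8.05, 10.5 and 3.90 CPM in Etv2-positive and 20.0, 19.1 and 10.1 in Etv2-negative cells. The highest Etv2-positive library stood just above the lowest Etv2-negative one (-1.14 ± 0.35, edgeR adjusted p = 0.0274). The Gsc call was lost without DP Etv2-negative replicate 1 (0.0935) or 2 (0.0902), without DP Etv2-positive replicate 1 (0.056) or 3 (0.0888), and with DESeq2 (0.0531).

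Mesp1 had 48.2, 38.5 and 18.6 CPM in DP Etv2-positive cells, against 240, 195 and 175 CPM in DP Etv2-negative cells (-2.54 ± 0.27, edgeR adjusted p = 2.6e-05). Its neighbour Mesp2 had 1.25, 1.2 and 0.837 CPM (34, 32 and 27 counts) in Etv2-positive and 16.6, 14.6 and 11.5 CPM in Etv2-negative cells (-3.71 ± 0.22, edgeR adjusted p = 4.12e-07). In both genes the lowest Etv2-negative library stood far above the highest Etv2-positive one. The presomitic factors followed the same order. Tbx6 had 2.21, 2.47 and 1.39 CPM in Etv2-positive and 16.0, 14.3 and 10.7 in Etv2-negative cells (-2.77 ± 0.27, edgeR adjusted p = 1.36e-05). Msgn1, a bHLH factor of presomitic mesoderm, had 0.883, 1.31 and 0.961 CPM in Etv2-positive and 6.86, 6.12 and 6.09 in Etv2-negative cells (-2.59 ± 0.31, edgeR adjusted p = 6.25e-05). The libraries of the 2 groups did not overlap for 8 of the 10 factors, against 21.1% of all genes that were lower without overlap.

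**Figure D2:**
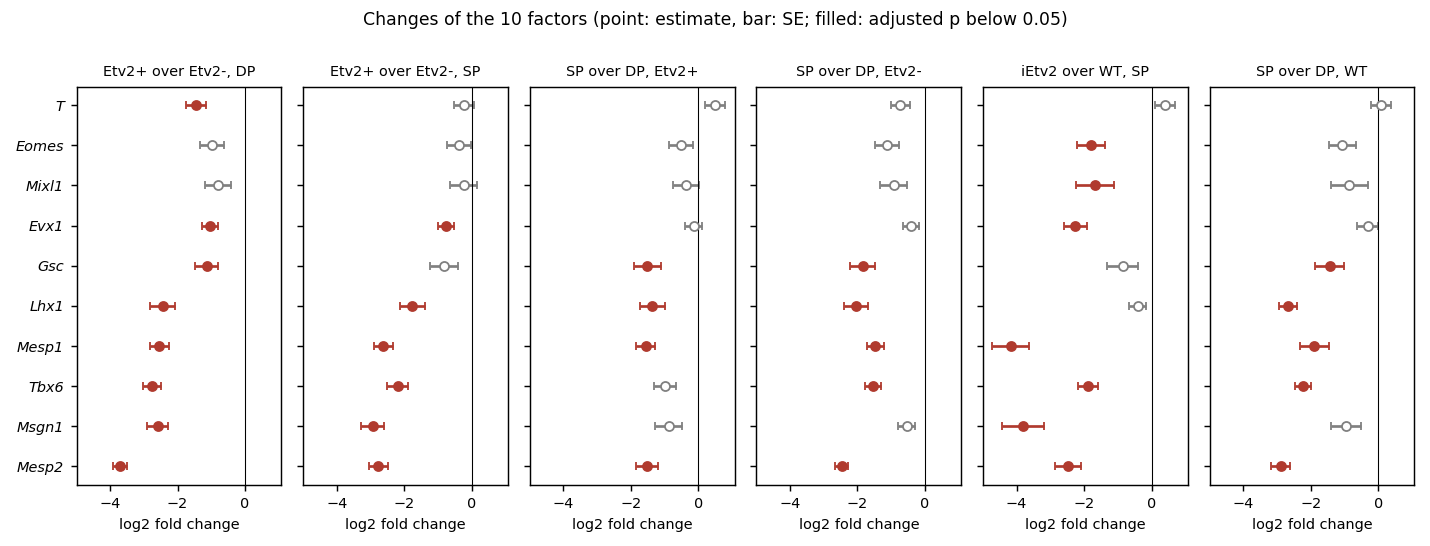
Log2 fold change of each factor (point, with SE as bar) in 6 comparisons, filled and red where the edgeR adjusted p is below 0.05. Mesp1 and Mesp2 are filled in every panel, and T only in the comparison of Etv2-positive with Etv2-negative DP cells.

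In SP cells 6 of 10 factors were lower with the reporter, the nascent and presomitic mesoderm factors Mesp1, Mesp2, Msgn1 and Tbx6 together with Lhx1 and Evx1. T, Eomes, Mixl1 and Gsc did not pass the test. Over all genes 25.5% were called and 12.4% were called lower. For 6 of the factors the Etv2-positive libraries lay below the Etv2-negative ones without overlap, against 21.9% of all genes that were lower without overlap. The median log2 difference was -1.29 over the 10 factors and -0.01 over all genes. Without both libraries of high ribosomal RNA share 5 factors passed, and the uncalled values of T, Eomes and Mixl1 turned positive (0.16, 0.16 and 0.31). With upper-quartile scaling the split of all calls in SP moved to 1800 higher and 2653 lower, against 2314 higher and 2190 lower with TMM scaling.

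Mesp1 had 12.7, 14.4 and 8.63 CPM in SP Etv2-positive cells, against 70.6, 83.3 and 65.8 CPM in SP Etv2-negative cells (-2.62 ± 0.29, edgeR adjusted p = 6.62e-05). Mesp2 was near the limit of counting in Etv2-positive cells, at 0.295, 0.445 and 0.377 CPM (8, 12 and 11 counts), and stood at 2.76, 3.06 and 1.88 CPM in Etv2-negative cells (-2.77 ± 0.28, edgeR adjusted p = 4.56e-05). Neither gene overlapped between the groups. Msgn1 had 0.479, 0.964 and 0.274 CPM in Etv2-positive and 4.23, 5.98 and 2.90 in Etv2-negative cells (-2.94 ± 0.35, edgeR adjusted p = 0.000127). Without SP Etv2-positive replicate 2 the Msgn1 difference was -3.54, and without both libraries of high ribosomal RNA share it was -2.30. Tbx6, the T-box factor of presomitic mesoderm, had 1.18, 1.04 and 0.822 CPM in Etv2-positive and 5.99, 5.17 and 2.87 in Etv2-negative cells, without overlap (-2.20 ± 0.31, edgeR adjusted p = 0.000358).

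Lhx1 had 22.3, 26.1 and 27.7 CPM in SP Etv2-positive cells, against 94.6, 108 and 56.1 CPM in SP Etv2-negative cells, and the groups did not overlap (-1.76 ± 0.38, edgeR adjusted p = 0.00489). Evx1 had 74.3, 69.4 and 42.5 CPM in Etv2-positive and 113, 118 and 85.7 in Etv2-negative cells, also without overlap (-0.77 ± 0.24, edgeR adjusted p = 0.034). The Evx1 call was lost without SP Etv2-negative replicate 1 (0.0889) or 2 (0.0963), without SP Etv2-positive replicate 2 (0.0529) or 3 (0.118), and without both libraries of high ribosomal RNA share (0.245). The other streak factors overlapped between the groups. T had 57.9, 62.5 and 39.7 CPM in SP Etv2-positive and 68.8, 79.4 and 39.0 in SP Etv2-negative cells (-0.23 ± 0.30, edgeR adjusted p = 0.618). Eomes had 228, 247 and 119 CPM in Etv2-positive and 255, 344 and 171 in Etv2-negative cells (-0.37 ± 0.35, edgeR adjusted p = 0.475), and Mixl1 had 79.9, 80.7 and 39.3 against 85.2, 106 and 44.5 (-0.24 ± 0.39, edgeR adjusted p = 0.693). Within each group replicate 3 was the lowest for all 3 of these genes. Gsc had 2.03, 3.67 and 2.09 CPM in Etv2-positive and 3.80, 6.57 and 3.31 in Etv2-negative cells (-0.82 ± 0.41, edgeR adjusted p = 0.166). With the replicate block, Eomes (-0.39, edgeR adjusted p = 0.0147) and Gsc (-0.80, edgeR adjusted p = 0.0129) passed as lower. T (-0.19, edgeR adjusted p = 0.101) and Mixl1 (-0.23, edgeR adjusted p = 0.0543) did not. In that fit 8 of 10 factors passed, against 5445 of all genes.

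Whether the reporter difference itself differed between the gates was tested as SP minus DP. No factor passed in edgeR or in DESeq2, against 3.97% of all genes in edgeR. At an unadjusted p below 0.05 in edgeR there were 2 factors, against 3473 of all 17690 genes. T had a log2 difference of 1.23 ± 0.42 (edgeR adjusted p = 0.121), and this passed without DP Etv2-negative replicate 3 (1.44, edgeR adjusted p = 0.0478). It passed in no other of the 12 fits that left out 1 library (edgeR adjusted p up to 0.251). The replicate block also ties SP to DP libraries, which were not taken as paired. With it 3 factors passed, against 1537 of all genes. They were T at 1.27 ± 0.12 (edgeR adjusted p = 0.000335), Mixl1 at 0.62 ± 0.12 (0.00706) and Eomes at 0.67 ± 0.15 (0.0159). For these 3 factors the Etv2-positive and Etv2-negative cells lay further apart in DP than in SP. Mesp1, Msgn1 and Gsc did not pass with or without the block, and had log2 values of -0.09 ± 0.38, -0.35 ± 0.48 and 0.32 ± 0.55 without it. Nor did Mesp2 (0.94 ± 0.40), Lhx1 (0.67 ± 0.51), Tbx6 (0.56 ± 0.42) and Evx1 (0.27 ± 0.34), with values again without the block. In that fit Mesp2 and Lhx1 had larger values than Eomes (0.62 ± 0.50) and Mixl1 (0.56 ± 0.55).

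Endothelial and blood markers moved with the reporter in the opposite direction to the factors. The summed level of 14 endothelial genes ranged from 139 to 271 CPM in SP Etv2-positive and from 34.7 to 61.7 in SP Etv2-negative cells. In DP it ranged from 48.7 to 72.5 CPM in Etv2-positive and from 24.6 to 33.6 in Etv2-negative cells. In SP 11 of 12 tested endothelial genes and all 11 tested blood genes were higher with the reporter, and in DP 5 of 12 (with Robo4 lower) and 5 of 11 were, against 2314 of all 17690 genes tested called higher in SP and 2827 in DP. Emcn and Cldn5 were at 0 in every DP Etv2-negative library, and Ptprc in every TGET DP library. Summed pluripotency genes, 12 in all, ranged from 79.3 to 145 CPM in SP Etv2-positive and 196 to 384 in SP Etv2-negative cells, and from 118 to 267 in DP Etv2-positive and 497 to 845 in DP Etv2-negative cells. The part of these cell types in the differences of the 10 factors was not tested.

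The next question was how SP and DP cells differ when the reporter state is the same. Among Etv2-negative cells 5 of 10 factors were lower in SP than in DP cells, Mesp2, Lhx1, Gsc, Tbx6 and Mesp1, against 10.9% of all genes called and 4.84% called lower. Among Etv2-positive cells 4 were lower in SP, Mesp1, Mesp2, Gsc and Lhx1, against 13.9% of genes called and 6.94% called lower. T, Eomes, Mixl1, Msgn1 and Evx1 passed in neither in this fit over the 4 TGET groups, which has no replicate block. Without both libraries of high ribosomal RNA share 7 factors passed among Etv2-negative and 2, Mesp1 and Mesp2, among Etv2-positive cells. These comparisons share libraries with the reporter comparisons and are not independent of them.

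Between Etv2-negative cells, the SP values given above lay below the DP values without overlap for 7 of the factors, against 16.4% of all genes. Mesp2 had the largest difference, at a mean of 2.56 ± 0.614 CPM in SP and 14.2 ± 2.57 in DP cells (-2.47 ± 0.19, edgeR adjusted p = 4.93e-05). Lhx1 averaged 86.2 ± 26.8 CPM in SP and 354 ± 121 in DP cells (-2.04 ± 0.36, edgeR adjusted p = 0.00395). Gsc, the other anterior streak gene, averaged 4.56 ± 1.76 CPM in SP and 16.4 ± 5.48 in DP cells (-1.84 ± 0.37, edgeR adjusted p = 0.00762). Tbx6 (-1.55 ± 0.24) and Mesp1 (-1.47 ± 0.26) had edgeR adjusted p-values of 0.00186 and 0.00345. Eomes, at -1.13 ± 0.36, missed the threshold (edgeR adjusted p = 0.061) and passed without DP Etv2-negative replicate 3 (0.0354). It passed in no other of the 6 fits that left out 1 library (edgeR adjusted p up to 0.194).

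Between Etv2-positive cells, Mesp1 averaged 11.9 ± 2.96 CPM in SP and 35.1 ± 15.1 in DP cells (-1.56 ± 0.28, edgeR adjusted p = 0.00419). Mesp2 averaged 0.372 ± 0.0752 CPM in SP and 1.10 ± 0.225 in DP cells (-1.53 ± 0.32, edgeR adjusted p = 0.00864). The SP libraries lay below the DP libraries without overlap for 5 factors, against 16.5% of all genes. The calls of Lhx1 (-1.37 ± 0.37, edgeR adjusted p = 0.03) and Gsc (-1.52 ± 0.40, edgeR adjusted p = 0.0258) rested on single libraries. Lhx1 was lost without any of DP Etv2-positive replicates 1 (0.0659) and 2 (0.106) and SP Etv2-positive replicates 1 (0.0996), 2 (0.0758) and 3 (0.0688). Gsc was lost without DP Etv2-positive replicate 1 (0.0629) or 2 (0.0822) or SP Etv2-positive replicate 1 (0.0942) or 3 (0.0894). Tbx6 missed the threshold at -0.99 ± 0.33 (edgeR adjusted p = 0.0677) and passed without DP Etv2-positive replicate 3 (0.0424) and with DESeq2 (0.0136). It passed in no other of the 6 fits that left out 1 library (edgeR adjusted p up to 0.192). T was the 1 factor with a higher mean in SP, 53.4 ± 12 CPM against 37.8 ± 12.5 in DP Etv2-positive cells, and its libraries overlapped (0.50 ± 0.30, edgeR adjusted p = 0.294). With the replicate block T passed as higher in SP (0.53, edgeR adjusted p = 0.0015), and among Etv2-negative cells as lower (-0.75, 7.35e-05). SP and DP libraries were not taken as paired, so that block rests on a shared number only.

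In WT cells, which were not split by an Etv2 reporter, 5 factors were lower in SP than in DP cells, Mesp2, Lhx1, Tbx6, Mesp1 and Gsc, against 15.8% of 16288 genes called and 6.76% called lower. Lhx1 had 73.5, 147 and 111 CPM in WT SP cells, against 469, 743 and 893 CPM in WT DP cells (-2.67 ± 0.27, edgeR adjusted p = 0.000126). Mesp2 had 2.28, 2.82 and 2.12 CPM in WT SP and 21.2, 15.2 and 17.3 in WT DP cells (-2.89 ± 0.28, edgeR adjusted p = 0.000101). Neither gene overlapped between the gates. Tbx6 had 3.30, 5.74 and 6.11 CPM in WT SP and 21.2, 23.6 and 25.5 in WT DP cells (-2.22 ± 0.24, edgeR adjusted p = 0.000204). Mesp1 had 50.5, 49.4 and 73.7 CPM in WT SP and 241, 185 and 218 in WT DP cells (-1.89 ± 0.44, edgeR adjusted p = 0.0147), and Gsc had 9.85, 12.9 and 13.6 against 26.1, 36.3 and 36.2 (-1.44 ± 0.44, edgeR adjusted p = 0.0495).

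The Mesp1 call was lost without WT SP replicate 1 (0.0646) and with DESeq2 (0.131). The Gsc call was lost without WT DP replicate 2 (0.112) or 3 (0.13), without WT SP replicate 1 (0.153), 2 (0.0888) or 3 (0.103), with RLE scaling (0.051), with a filter of 1 CPM in 3 libraries (0.0504) and with DESeq2 (0.103). SP libraries lay below DP libraries without overlap for 8 factors, against 15.5% of all genes, among them Eomes, Mixl1 and Msgn1, which did not pass. With only the WT libraries fitted, Eomes, Mixl1 and Msgn1 passed as lower (edgeR adjusted p = 0.00597, 0.0338 and 0.038). Eomes also passed with the replicate block (0.0166), and Mixl1 and Msgn1 did not. T had 159, 227 and 220 CPM in WT SP and 150, 240 and 179 in WT DP cells (0.09 ± 0.29, edgeR adjusted p = 0.887), which overlapped throughout. Evx1 had 109, 140 and 177 CPM in WT SP and 149, 178 and 202 in WT DP cells, which also overlapped (-0.31 ± 0.31, edgeR adjusted p = 0.578). Endothelial genes summed to 169 to 247 CPM in WT SP and 23.6 to 33.0 in WT DP cells, and blood genes to 504 to 618 and 70.3 to 96.7, and their part was not tested.

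**Figure D3:**
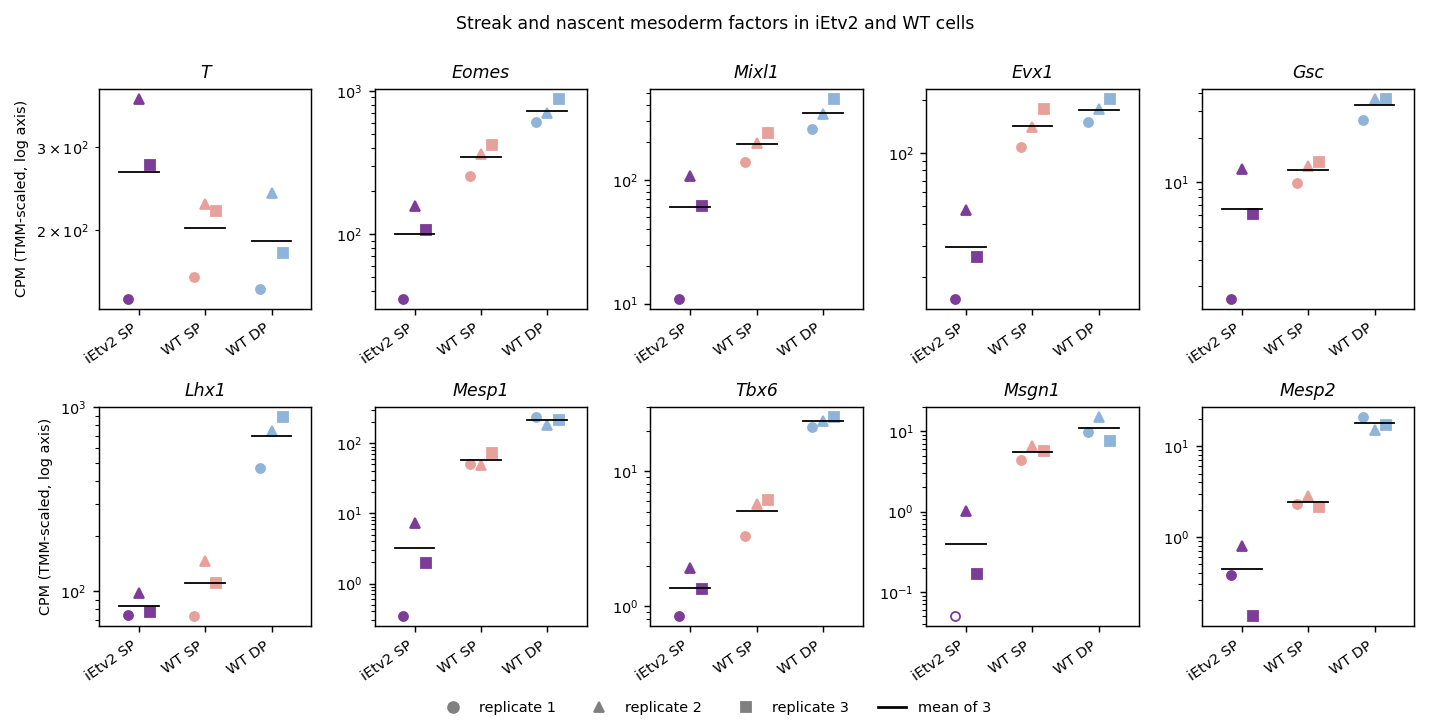
CPM of each factor on a log axis in iEtv2 SP, WT SP and WT DP cells (circle, triangle and square for replicates 1, 2 and 3, line for the mean of 3, open symbol at the lower edge for a count of 0). Mesp1 spreads from 0.345 to 7.32 CPM in iEtv2 SP cells and from 49.4 to 73.7 CPM in WT SP cells, while T overlaps between all 3 groups.

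The last comparison asked how SP cells with induced Etv2 differ from WT SP cells. In iEtv2 cells 7 of 10 factors were lower, Mesp1, Msgn1, Mesp2, Evx1, Tbx6, Eomes and Mixl1, and none was higher. This is the widest of the comparisons, with 50.8% of all genes called and 24.4% called lower. T, Lhx1 and Gsc did not pass. The median log2 difference was -1.84 over the 10 factors and 0.00 over all genes.

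Mesp1 had 0.345, 7.32 and 1.96 CPM (9, 192 and 58 counts) in iEtv2 SP cells, against 50.5, 49.4 and 73.7 CPM in WT SP cells. The groups were far apart, but the iEtv2 libraries also differed greatly among themselves (-4.18 ± 0.54, edgeR adjusted p = 9.25e-05), and without iEtv2 replicate 2 the log2 fold change was -5.58. Msgn1 had 0, 1.03 and 0.169 CPM (0, 27 and 5 counts) in iEtv2 and 4.36, 6.66 and 5.73 CPM in WT SP cells (-3.81 ± 0.63, edgeR adjusted p = 0.000459), and -5.87 without iEtv2 replicate 2. A count of 0 in iEtv2 replicate 1 allows up to 0.117 CPM, from 3 counts and for counting error only. Mesp2 had 0.383, 0.800 and 0.135 CPM (10, 21 and 4 counts) in iEtv2 and 2.28, 2.82 and 2.12 CPM in WT SP cells (-2.47 ± 0.39, edgeR adjusted p = 0.000336), and -3.21 without iEtv2 replicate 2. Tbx6 was steadier, at 0.844, 1.91 and 1.35 CPM in iEtv2 and 3.30, 5.74 and 6.11 in WT SP cells (-1.88 ± 0.29, edgeR adjusted p = 0.000278). None of these 4 genes overlapped between the groups.

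Of the streak factors, Evx1 had 15.1, 47.9 and 25.8 CPM in iEtv2 SP cells, against 109, 140 and 177 CPM in WT SP cells (-2.26 ± 0.34, edgeR adjusted p = 0.000226). Eomes had 35.5, 156 and 107 CPM in iEtv2 and 253, 364 and 420 in WT SP cells (-1.80 ± 0.41, edgeR adjusted p = 0.00352). Neither overlapped between the groups, and iEtv2 replicate 1 was the lowest library for both. Mixl1 had 11, 108 and 61.8 CPM in iEtv2 and 140, 198 and 240 in WT SP cells (-1.68 ± 0.56, edgeR adjusted p = 0.0277). Its call was lost without WT SP replicate 2 (0.0507) or 3 (0.0851), without iEtv2 replicate 3 (0.0738) and with DESeq2 (0.0528), and its value was -2.39 without iEtv2 replicate 2.

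T had 143, 380 and 275 CPM in iEtv2 SP and 159, 227 and 220 in WT SP cells. The groups overlapped (0.40 ± 0.29, edgeR adjusted p = 0.286), and without iEtv2 replicate 1 T passed as higher (0.71, edgeR adjusted p = 0.0171). T passed in no other of the 6 fits that left out 1 library (edgeR adjusted p up to 0.861). Lhx1 had 74.0, 98.1 and 77.0 CPM in iEtv2 and 73.5, 147 and 111 in WT SP cells (-0.41 ± 0.26, edgeR adjusted p = 0.209). Gsc had 1.65, 12.2 and 6.09 CPM in iEtv2 and 9.85, 12.9 and 13.6 in WT SP cells, a wide and overlapping spread (-0.86 ± 0.46, edgeR adjusted p = 0.144), and it passed as lower without iEtv2 replicate 2 (-1.61, edgeR adjusted p = 0.00776). Gsc also passed in no other of the 6 fits (up to 0.284). The libraries did not overlap for 7 of the 10 factors, against 29.2% of all genes that were lower without overlap.

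Other lineages also differed between iEtv2 and WT SP cells. The 14 endothelial genes were all higher and summed to 2008 to 2443 CPM in iEtv2 SP and 169 to 247 in WT SP cells, and of 11 tested blood genes 6 were higher and 3 lower. Over all 16288 genes 4296 were called higher and 3978 lower. Of 12 pluripotency genes 8 were higher and 1, Tdgf1, was lower. Higher were among others Pou5f1 (2.57 ± 0.16), which is active in pluripotent cells and early streak, and Utf1 (4.03 ± 0.42). The 12 summed to 563 to 604 CPM in iEtv2 SP and 331 to 509 in WT SP cells. These sums include Tdgf1, the Nodal co-receptor, which averaged 152 ± 56.4 CPM in iEtv2 SP and 330 ± 79 in WT SP cells and made up most of the WT SP sum. Of 10 cardiac progenitor genes 9 were lower and 1, Mef2c, was higher, with sums of 42.9 to 60.4 CPM in iEtv2 SP and 671 to 722 in WT SP cells. Of 6 tested neural genes 4 were higher, among them Sox3 (2.55 ± 0.31) and Otx2 (1.54 ± 0.24), 1, Ncam1, was lower (-0.48 ± 0.17) and Nes did not pass. Ptprc, which marks mature blood cells, was at 0 in every WT SP library, and the endoderm gene Ttr in every iEtv2 library. The part of these cell types in the differences of the 10 factors was not tested.

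**Figure D4:**
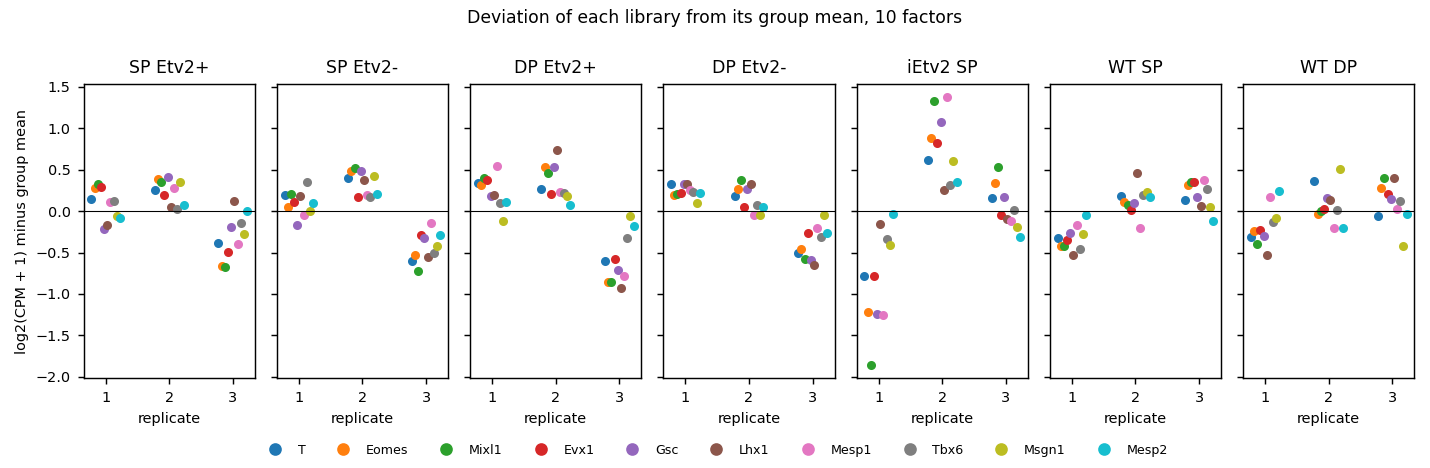
Deviation of each library from its group mean, as log2(CPM + 1), for the 10 factors in 7 groups. Replicate 3 is the lowest of the TGET libraries in 36 of 40 combinations of factor and group, and replicate 2 of the iEtv2 cells is the highest for 10 of 10 factors.

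The factors varied together between libraries of the same group. In the TGET line replicate 3 was the lowest of the 3 libraries in 36 of 40 combinations of factor and group, and replicate 2 the highest in 24. The 10 factors summed to 479, 507 and 280 CPM in replicates 1, 2 and 3 of SP Etv2-positive cells and to 703, 859 and 473 in SP Etv2-negative cells. In DP they summed to 692, 761 and 312 CPM in Etv2-positive and 1807, 1777 and 1109 CPM in Etv2-negative cells. The endothelial sum went the other way, highest in replicate 3 of every TGET group, at 271 CPM in SP Etv2-positive cells, where replicates 1 and 2 had 139 and 161. In iEtv2 SP cells replicate 1 was the lowest for 9 of the 10 factors, with sums of 282, 813 and 556 CPM, against 804, 1154 and 1269 CPM in WT SP cells. The iEtv2 endothelial sums were 2008, 2443 and 2378 CPM. Whether these shared deviations reflect cell composition was not tested.

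Genes that act with these factors in the streak were described from lists. Of 17 signal genes of the streak (Nodal, Wnt, FGF and BMP ligands, their inhibitors and targets), 12 were lower and 1, Bmp4, was higher in DP Etv2-positive than in DP Etv2-negative cells, with a median log2 difference of -1.72 over the list and 0.00 over all genes. Over all genes 14.7% were called lower in DP and 12.4% in SP. Lefty2, a Nodal inhibitor that Nodal itself switches on, had 12.3, 10.8 and 3.72 CPM in DP Etv2-positive and 111, 93.2 and 34.9 in DP Etv2-negative cells, without overlap (-3.17 ± 0.50, edgeR adjusted p = 0.000476). Fgf8, the streak ligand needed for cells to migrate away, had 13.1, 16.4 and 7.28 CPM in Etv2-positive and 58.5, 60.1 and 43.5 in Etv2-negative cells (-2.15 ± 0.33, edgeR adjusted p = 0.000351). In SP cells 9 of the 17 were lower with the reporter and none was higher, Fgf8 among them (-1.85 ± 0.35, edgeR adjusted p = 0.00232). SP cells were lower than DP cells in 7 of 17 without the reporter, where Bmp4 was higher, in 2 of 17 with it, and in 7 of 17 in WT, against 4.84%, 6.94% and 6.76% of all genes called lower in these comparisons.

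Of 18 presomitic genes 15 were tested, and most were lower with the reporter, as Tbx6 and Msgn1 were. In DP 12 were lower and 1, Meox1, was higher with the reporter (median -2.35), and in SP 8 were lower and 2, Rspo3 and Meox1, were higher (median -0.80). Dll1, a Notch ligand and target of Tbx6 in the mouse, had 2.57, 3.41 and 1.61 CPM in DP Etv2-positive and 34.9, 34.1 and 28.0 in DP Etv2-negative cells (-3.69 ± 0.25, edgeR adjusted p = 1.24e-06). In SP it had 0.553, 0.705 and 0.891 CPM in Etv2-positive and 6.96, 8.58 and 4.54 in Etv2-negative cells (-3.21 ± 0.31, edgeR adjusted p = 3.28e-05). The 2 reporter states did not overlap in either gate. SP cells were lower than DP cells in 11 of 15 without the reporter, 8 with it and 10 in WT, where the shares of all genes called lower were those just given for the signal genes. In the main tests Msgn1 passed in none of these gate comparisons, and Tbx6 only without the reporter and in WT. Of 10 posterior streak and tail genes 5 were lower with the reporter in each gate, and Nkx1-2 was higher in DP (1.45 ± 0.25, edgeR adjusted p = 0.000858). The list of anterior streak and definitive endoderm genes, 9 of 10 tested, did not move one way. In DP 2 of them, Sox17 and Gata6, were higher and 3, Otx2, Cxcr4 and Gata4, were lower with the reporter (median 0.43). In SP 4 were higher, Apoa1, Hhex, Sox17 and Gata6, and 2, Otx2 and Cxcr4, were lower (median -0.01).

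In iEtv2 SP cells the signal genes went both ways, with 7 of 17 lower and 2, Nodal and Fgf5, higher (median -0.49), against 24.4% of all genes called lower and 4296 of 16288 called higher. Nodal had 18.0, 25.1 and 26.1 CPM in iEtv2 SP cells, against 4.2, 9.85 and 8.19 CPM in WT SP cells (1.64 ± 0.32, edgeR adjusted p = 0.00134). Bmp4, which promotes FLK1-positive mesoderm, had 23.7, 62.4 and 29.5 CPM in iEtv2 and 201, 201 and 238 in WT SP cells (-2.47 ± 0.28, edgeR adjusted p = 3.81e-05). Neither gene overlapped between the groups. The presomitic list had 8 of 15 lower and 3 higher, Foxc2, Tcf15 and Lfng, while Dll1 had 7.02, 5.76 and 5.14 CPM in iEtv2 and 5.42, 9.51 and 6.16 in WT SP cells. Posterior streak and tail genes were lower in 7 of 10 and higher in none, and the anterior streak and endoderm genes were lower in 3 of 9, Gata4, Apoa1 and Cxcr4, and higher in 3, Sox17, Otx2 and Hhex. Hoxb1, the most 3′ gene of its Hox cluster, had 0.153, 0.839 and 0.237 CPM in iEtv2 and 18.9, 19.3 and 21.4 in WT SP cells (-5.60 ± 0.32, edgeR adjusted p = 2.95e-07).

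**Figure D5:**
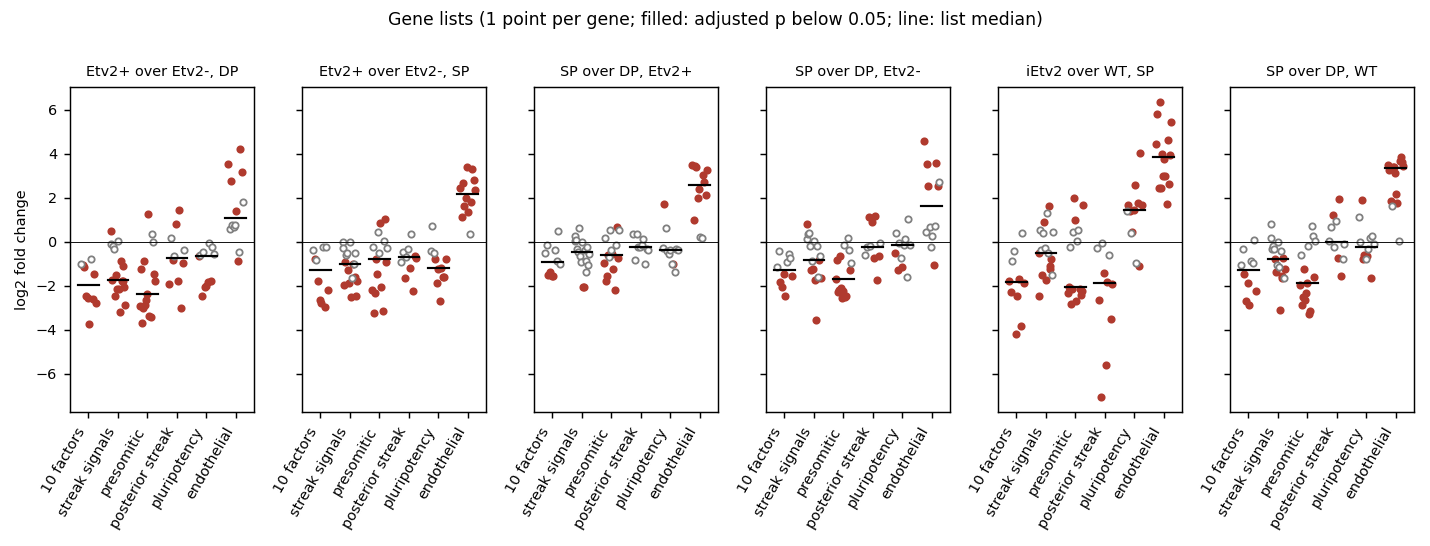
Log2 fold change of each gene of 6 lists in 6 comparisons (1 point per gene, filled and red where the edgeR adjusted p is below 0.05, line for the median of the list). In the comparison of DP Etv2-positive with DP Etv2-negative cells the medians are -1.95 for the 10 factors, -1.72 for streak signals and -2.35 for presomitic genes.

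Across the 12 TGET libraries the pairs of factors with the most alike log2(CPM + 1) levels were Eomes with Mixl1 and Mesp2 with Tbx6, each with a Pearson r of 0.98. The least alike were Mixl1 with Msgn1 (0.61) and T with Gsc (0.64). Among other genes of at least 5 CPM, the closest to T were Emb (0.977) and Cyp26a1 (0.960), a retinoic acid degrading enzyme of the tail region. Pmepa1, a TGF-beta target gene, was closest to both Eomes (0.982) and Mixl1 (0.987), and Dll1 was closest to Mesp2 (0.990). Mesp1 was most like Hs3st3b1 (0.991), Msgn1 like Heca (0.989), Tbx6 like Nr1d2 (0.990), Lhx1 like Dll3 (0.985), Gsc like Zcchc12 (0.972) and Evx1 like St6galnac4 (0.988). These values describe 12 libraries in 4 groups that share line, gates and sequencing set.

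Evx1 shares 1335 bases with Evx1os on the opposite strand, and the strand setting of the counting is not given, so reads of the pair may not be separated. Evx1os averaged 21.9 ± 4.17 CPM in SP Etv2-positive and 38.1 ± 7.61 in SP Etv2-negative cells, 23.3 ± 6.03 in DP Etv2-positive and 45.2 ± 6.76 in DP Etv2-negative cells, and its r with Evx1 was 0.987. In the other set it averaged 10.9 ± 7.16 in iEtv2 SP, 56.9 ± 13.7 in WT SP and 66.4 ± 11.1 CPM in WT DP cells. Eomes shares 574 bases with the antisense gene Gm33460, which averaged at most 2.95 CPM in any group. Windows of 50 bases from the transcripts of the factors occurred in no other gene's transcripts for 9 of them, and for Eomes 99.7% did not. Only the transcripts' own strand was searched, so overlap with antisense genes such as Evx1os could not be found this way.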

How the data were processed

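RNA was measured by total RNA sequencing with a strand-marking kit, per the labels' protocols. The deposited values are unnormalized counts for each Ensembl gene, with mm10 and featureCounts (no version) named in the submitters' processing notes. The 9 iEtv2 and WT files also hold entries for reads outside genes, of the kind STAR writes, at 3.95 to 5.25% unmapped, 7.34 to 8.75% multimapping, 5.04 to 7.91% in no feature and 4.3 to 4.91% ambiguous. These stayed out of library sizes and tests. Aligner, annotation and strand setting are not given in the sources used here. Of 55487 IDs, 55227 were named from GENCODE M21.

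Counts were tested with edgeR 4.0.16 in R 4.3.3 (TMM scaling, filterByExpr, quasi-likelihood test with 1 term per group, two-sided), the 12 TGET and 9 other libraries apart, and adjusted by Benjamini-Hochberg over all genes tested. CPM use TMM-scaled library sizes, and CPM per kb divide by exonic length. SE is the log2 fold change over the root of F. There were 7 comparisons, several of which share libraries. The 10 factors and the gene lists were chosen with earlier results of these data known. Some genes stand on more than 1 list. For 1 listed gene the result is not reported here. Text names the factors, the sort genes, up to 4 called genes of a list with the largest change and at least 5 CPM (those said to be the exceptions of a count are named beside it, and values of Dll1 in iEtv2 cells were chosen after they were seen), and the genes most alike.

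Same-numbered libraries were taken as paired where every correlation of their deviations from group means was above 0.1. This held for the reporter in DP (0.359 to 0.539) and SP (0.227 to 0.503), not for SP over DP in Etv2-negative (0.095 to 0.527), Etv2-positive (0.028 to 0.369) or WT cells (0.051 to 0.552), nor for iEtv2 over WT (-0.164 to 0.271). The alternatives tried were DESeq2 1.42.0, scaling by RLE or by the upper quartile, low-count filters (none, or 1 CPM in at least 3 libraries), the replicate number as a block, fits of the compared groups alone, dropping genes for ribosomal RNA and mitochondrial genes, a pseudocount of 0.5 for the genes most alike, and leaving libraries out. The tests were tried on simulated data.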

Additional observations from a re-analysis of the deposited data

Results flagged for a closer look

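With the replicate block, the difference between Etv2-positive and Etv2-negative cells passed as different between the gates for 3 factors. Over all genes 1537 passed in that fit. The block also ties same-numbered SP and DP libraries, which by the correlation rule were not taken as paired. The log2 value of SP minus DP was 1.27 ± 0.12 for T (edgeR adjusted p = 0.000335), 0.67 ± 0.15 for Eomes (edgeR adjusted p = 0.0159) and 0.62 ± 0.12 for Mixl1 (edgeR adjusted p = 0.00706). Mesp2 (0.94 ± 0.30, edgeR adjusted p = 0.0708) and Lhx1 (0.82 ± 0.33, edgeR adjusted p = 0.151) had larger values than Eomes and Mixl1 but did not pass. T had a log2 difference between Etv2-positive and Etv2-negative cells of -0.19 ± 0.08 in SP and -1.47 ± 0.09 in DP in this fit, Eomes -0.39 ± 0.11 and -1.06 ± 0.11, and Mixl1 -0.23 ± 0.08 and -0.85 ± 0.08. Without the block, with all libraries and the filter on low counts, none of them passed (1.23, 0.62 and 0.56). T passed without DP Etv2-negative replicate 3 (1.44, edgeR adjusted p = 0.0478), and in no other of the 12 fits that left out 1 library (up to 0.251). With no filter on low counts all 3 passed, T at 1.23 (edgeR adjusted p = 4.49e-25), Eomes at 0.61 (3.24e-08) and Mixl1 at 0.56 (1.35e-05). These log2 values were nearly those with the filter, where the edgeR adjusted p was 0.121, 0.547 and 0.631. The p-values thus depended on the filter, and those without it are not taken as support.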

How the results depend on the processing

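Over the single factors, with the list of genes most alike counted as a value kept, 965 values under alternatives kept their direction and side of the threshold. Of the rest 63 passed newly, 35 no longer passed and 18 changed sign. No value that passed in the main tests changed sign. Without a filter on low counts 10 factors passed for the reporter in SP, 10 for SP over DP without the reporter, 9 with it, 4 for the interaction and 9 for SP over DP in WT, and 1740 genes for the interaction. With the replicate block 9 and 8 factors passed for SP over DP in Etv2-negative and Etv2-positive cells, against 2788 and 3370 of all genes. Libraries share only a number there, and T was among these factors at -0.75 (edgeR adjusted p = 7.35e-05) and 0.53 (0.0015). For the interaction 3 factors and 1537 genes passed with this block. In WT 3 factors passed with DESeq2 and 8 with only the compared groups, and for SP over DP with the reporter 1324 genes passed with only the compared groups. The interaction had 1242 genes with DESeq2. Without both libraries of high ribosomal RNA share, 2459 genes passed for the reporter in SP, 2 factors and 1106 genes for SP over DP with it and 119 genes for the interaction. Leaving out 1 library gave 7 to 9 factors for the reporter in DP, 5 to 6 in SP, 5 to 6 for SP over DP without the reporter (787 to 2268 genes), 2 to 5 with it (1342 to 2403 genes), 0 to 1 for the interaction (50 to 1268 genes), 3 to 5 in WT (1509 to 2683 genes) and 6 to 8 for iEtv2 over WT. The cause was not tested. With a pseudocount of 0.5, 25 of the 30 genes most alike were shared.

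Signs changed for values that had not passed. For the reporter in SP without both libraries of high ribosomal RNA share, T gave 0.16, Eomes 0.16 and Mixl1 0.31, and Mixl1 gave 0.03 and 0.04 with 1 left out (range -0.53 to 0.04). Evx1 for SP over DP with the reporter gave 0.05 and 0.07 with 1 library left out (range -0.38 to 0.07) and 0.07 without both. In the interaction Mesp1 ranged from -0.39 to 0.21 with 1 left out and 0.20 without both, Msgn1 0.29 without both and Gsc -0.0009 and -0.01 with 1 left out (range -0.01 to 0.68). T in WT gave -0.05 and -0.0029 with 1 left out (range -0.05 to 0.29). Low counts of Mesp2 and Msgn1 in Etv2-positive and iEtv2 SP cells limit what can be said of them.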
